A study of Mus musculus with 2 samples.

Results

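The genes described here are the cyclins, the cyclin-dependent kinases (CDKs), the CDK inhibitors and the E2F-RB genes of mouse Lewis lung carcinoma (LLC) cells, a carcinoma line of the C57BL/6 strain. They were taken by gene symbol, as the families Ccn, Cdk, Cdkn and E2f together with Rb1, Rbl1, Rbl2, Tfdp1 and Tfdp2. Statements on a family cover the members analysed here. This gave 74 of the 19505 genes measured, on 75 probe sets. Ccnd1, Ccnb1, Ccnf, Cdk9 and Cdk12 were not among these 74 genes, so nothing is said of them. A pair of cell lines was compared on Affymetrix Clariom S arrays, with 1 array per line. The shPDLIM2 LLC cells carried a short hairpin RNA against PDLIM2, a PDZ and LIM domain protein, and the shEmpty LLC cells carried an empty shRNA vector. Both lines were made by infection with virus and selected as stable lines with puromycin. One hairpin was used for the knockdown, and whether either line was a single clone remained unknown (not given in the sources used here).

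The study made these arrays to find genes that were up- and downregulated after PDLIM2 knockdown. Because each line has 1 array, no spread between cultures can be given, no gene was tested, and every difference below is a description of these arrays. Values are log2 signals as deposited, and log2 differences were taken as shPDLIM2 minus shEmpty. A signal was called above background when it exceeded the 95th percentile of 1450 odorant, vomeronasal and taste receptor genes, which was 5.26 in shPDLIM2 cells and 5.12 in shEmpty cells. The median difference was 0.01 over all genes and -0.06 over the 10779 genes above background on at least 1 array. Error between cultures could not be measured. The 2 measures of spread that follow come from within these arrays, hold no variation between cultures and cannot stand in for it. The spread of a probe set's log2 difference between probe sets of the same gene was 0.35 (SD, from 48 genes with a pair of probe sets). The central 95% of the receptor genes had log2 differences between -0.79 and 1.01. Below this wider range lay 8 of the 74 genes, among them Cdk20, which was at background, and 0 lay above it. The range is not symmetric, and the share of all genes outside it was not counted. These counts therefore say nothing of how the 74 genes differ from other genes. At an absolute log2 difference of at least 0.75, 8 of the 60 members above background were lower and 2 higher. Of all genes above background, 8.46% were lower and 5.63% higher by that much. The signal of Pdlim2, on the log2 scale, was 8.33 in shPDLIM2 cells and 10.04 in shEmpty cells, 3.27-fold lower in the knockdown.

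Cyclins bind and activate CDKs, and the active pairs carry the cell from one phase of the cycle to the next. D-type cyclins with CDK4 or CDK6, and then E-type cyclins with CDK2, phosphorylate the RB family in G1, which releases E2F factors and their target genes for DNA replication. A-type cyclins act in S phase, and B-type cyclins with CDK1 drive entry into mitosis. The Cip/Kip and INK4 proteins inhibit these kinases, and another set of cyclins and CDKs acts on RNA polymerase II rather than on the cycle. RNA of whole cultures was measured, so that fewer cells in a phase and less RNA per cell cannot be told apart for any gene below.

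Of the 74 genes, 59 were above background on both arrays, E2f2 was above it in shEmpty cells alone, and 14 were above it on neither array. In all, 44 genes had a lower signal in shPDLIM2 cells and 30 a higher one, where 49.0% of all genes were lower and 50.0% higher. Among the 60 genes above background, 39 (65.0%) were lower and 21 (35.0%) higher, beside 54.9% lower and 44.3% higher among all genes above background. At least 2-fold lower were 2 genes, Ccnb2 and E2f8, which is 2.70% of the 74 genes against 2.01% of all genes (3.27% of all genes above background). No gene was 2-fold higher on the deposited scale, where 1.74% of all genes and 2.10% of those above background were. Under quantile normalization, and likewise without the trend with signal, 2 genes were past 2-fold higher, Cdk6 and Ccne2. The share of all genes past it under these scalings was not counted. On the deposited scale the share past 2-fold lower lay near that of all genes. At 1.5-fold, 12 of the 74 genes (16.2%) were lower, against 10.0% of all genes, and 4 (5.41%) were higher, against 9.78%. Among the 60 genes above background these counts were 10 lower (16.7%, against 14.5% of all such genes) and 4 higher (6.67%, against 9.80%). The median log2 difference was -0.085 over the 74 genes and -0.14 over the 60 above background.

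**Figure D1:**
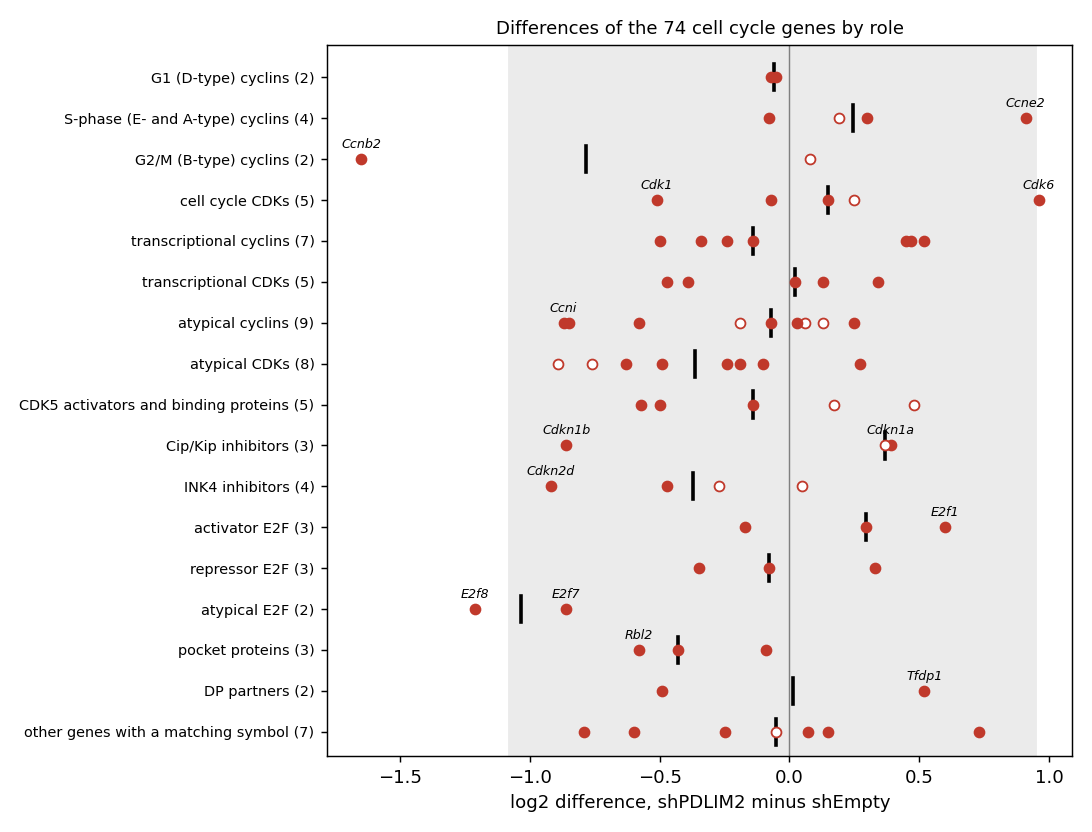
Log2 difference (x axis, shPDLIM2 minus shEmpty) of each of the 74 genes, by role (y axis, number of genes in brackets); filled points are above background on at least 1 array, open points on neither, and black bars are group medians. The grey band holds the central 95% of the differences of all genes above background (-1.08 to 0.95); Ccnb2 at -1.65 and E2f8 at -1.21 lie below it, and Cdk6 at 0.96 lies just above it.

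On the G1 side of the cycle, the D-type cyclins analysed here, Ccnd2 and Ccnd3, differed by less than 0.1 on the log2 scale while Cdk6 and the E-type cyclins had higher signals in shPDLIM2 cells. The differences of Cdk6 and Ccne2 were nonetheless inside the range of the receptor genes. Ccnd2, which couples growth signals to CDK4 and CDK6, had a log2 signal of 12.48 in shPDLIM2 cells and 12.53 in shEmpty cells. Ccnd3, its close relative, had 11.97 and 12.04 in the same order. Their differences of -0.05 and -0.07 were well inside the spread of probe sets, and the sign of both turned after quantile normalization. Cdk6, the G1 kinase of the D-type cyclins, had a signal of 13.11 in shPDLIM2 cells and 12.15 in shEmpty cells, 1.95-fold higher and the largest positive difference of all 74 genes. It ranked at place 258 from the highest among the 10779 genes above background. Cdk4, the other D-type kinase, had 15.30 in shPDLIM2 cells and 15.15 in shEmpty cells, a difference of 0.15.

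Ccne2, an E-type cyclin that activates CDK2 at the start of DNA replication, had a signal of 8.43 in shPDLIM2 cells and 7.52 in shEmpty cells, 1.88-fold higher. Ccne1, the other E-type cyclin, had 9.29 in shPDLIM2 cells and 8.99 in shEmpty cells, a smaller difference of 0.30 that was below the spread of probe sets. Cdk2, their kinase, was nearly level at 10.57 in shPDLIM2 cells and 10.64 in shEmpty cells. Ccna2, the S-phase cyclin of dividing somatic cells, was also nearly level, with 10.58 in shPDLIM2 cells and 10.66 in shEmpty cells. Ccna1, a cyclin of the germ line, and Cdk3 were not above background in either line. Over the 4 E- and A-type cyclins the median log2 difference was 0.245, with 3 higher and 1 lower.

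Of the B-type cyclins analysed here, Ccnb2 carried the largest difference of all 74 genes. Ccnb2, a mitotic partner of CDK1, had a log2 signal of 11.49 in shPDLIM2 cells and 13.14 in shEmpty cells, 3.14-fold lower. It ranked at place 20 from the lowest among the 10779 genes above background. Cdk1, the mitotic kinase, was lower by less, with 10.40 in shPDLIM2 cells and 10.91 in shEmpty cells, or 1.42-fold. Ccnb3, a cyclin known from meiosis, was at 3.99 in shPDLIM2 cells and 3.91 in shEmpty cells, at background on both arrays. The markers of dividing cells were also lower in shPDLIM2 cells, in 3 of 3 genes. Their log2 summed signal was 15.8 in shPDLIM2 cells and 16.3 in shEmpty cells, most of it from Pcna. Mki67 had 11.59 in shPDLIM2 cells and 12.80 in shEmpty cells, Top2a had 11.76 and 13.03 in that order, and Pcna had 15.57 and 15.99. Their part in the Ccnb2 and Cdk1 values was not tested.

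**Figure D2:**
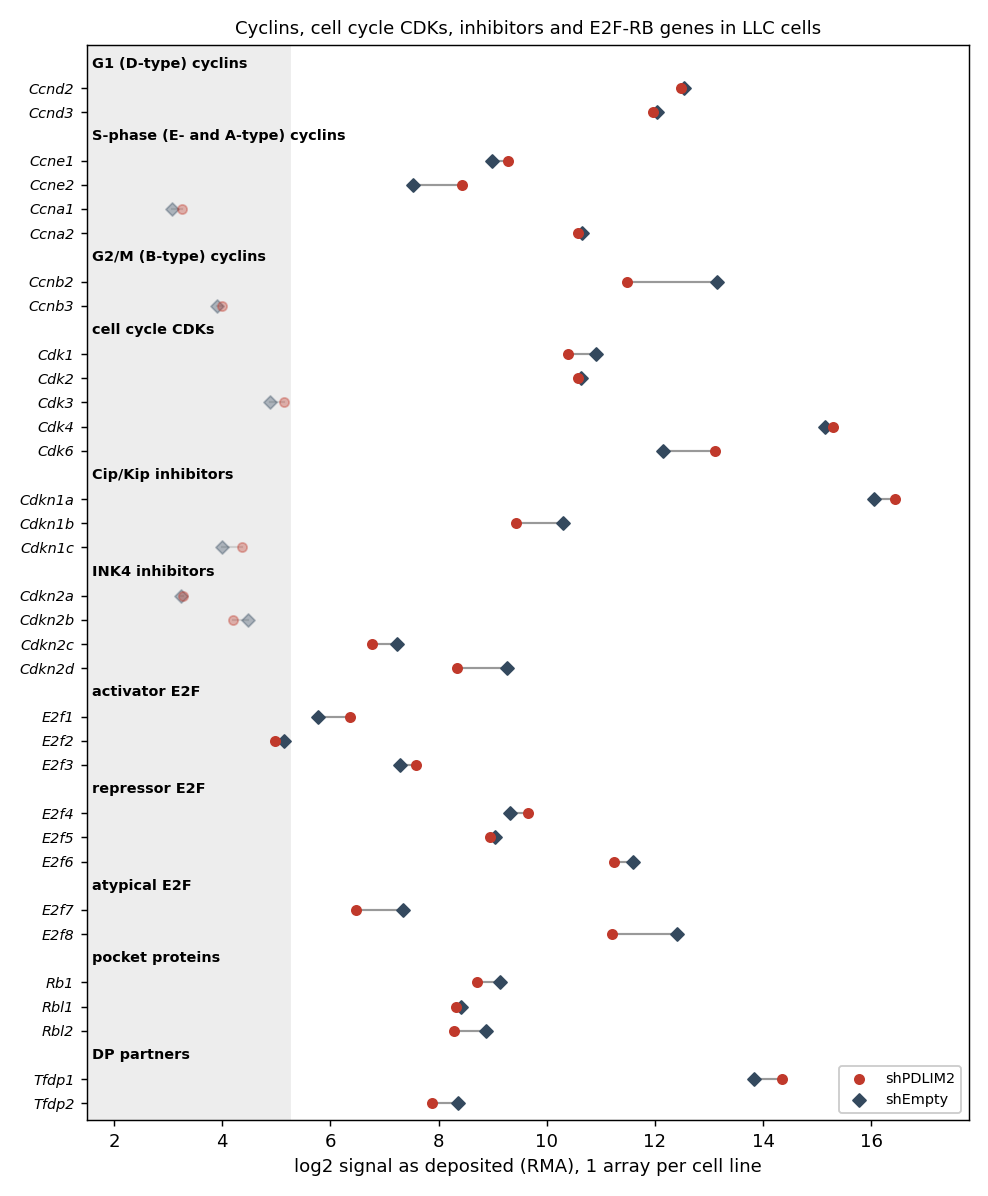
Log2 signal (x axis) of each cyclin, cell cycle CDK, inhibitor and E2F-RB gene (y axis) in shPDLIM2 (circles) and shEmpty (diamonds) LLC cells, 1 array each; the grey area is the range up to the higher background level (5.26), and pale points are genes above background on neither array. Ccnb2, E2f8, E2f7, Cdkn1b and Cdkn2d lie to the left in shPDLIM2 cells, and Cdk6, Ccne2, E2f1 and Tfdp1 lie to the right.

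The upstream sequences of some lower and some higher genes are shown here as examples, and they do not represent the 74 genes. Cdkn2d, Ccni and Cdkn1b, at -0.92, -0.87 and -0.86, differed by more than Cdk1 and are not printed. Neither are Tfdp1 and Cdkn2aipnl, at 0.52 and 0.73, which differed by more than Ccne1 at 0.30. Promoters of mitotic genes often hold CCAAT boxes, bound by the factor NF-Y. Many also hold a cell cycle genes homology region (CHR), bound by MuvB complexes, while many S-phase promoters hold E2F sites. Windows from RefSeq on GRCm38.p6, reaching from 250 bases before to 50 bases after a start site, were found for 60 of the 74 genes, in 70 windows. Both strands were searched for CCAAT, for the CHR letters (TTTGAA and its variant TTCGAA), and for the E2F letters (TTTCCCGC and its variants TTTCGCGC, then TTTGCCGC, then TTTGGCGC), and 0 matches of different motifs overlapped. The E2F letters were found in 9 of the 70 windows (12.9%), against 2.26% of all 32817 promoter windows. CCAAT was found in 45.7% of the windows of these genes and 37.4% of all windows, and the CHR letters in 17.1% and 19.2%. A match is a description of the letters and no measured binding site.

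The bases before the start site follow for Ccnb2 at chr9:70421555-70421804 (minus strand), Cdk1 at chr10:69352913-69353162 (minus strand), E2f8 at chr7:48881597-48881846 (minus strand) and E2f7 at chr10:110745189-110745438 (plus strand), which were lower in shPDLIM2 cells, and for Ccne1 at chr7:38107491-38107740 (minus strand) and Cdk6 at chr5:3343643-3343892 (plus strand), which were higher. They are written 5′ to 3′ on the gene's strand, and capitals mark the motifs, where CCAAT on the opposite strand reads as ATTGG and the CHR letters likewise as TTCAAA.
Ccnb2: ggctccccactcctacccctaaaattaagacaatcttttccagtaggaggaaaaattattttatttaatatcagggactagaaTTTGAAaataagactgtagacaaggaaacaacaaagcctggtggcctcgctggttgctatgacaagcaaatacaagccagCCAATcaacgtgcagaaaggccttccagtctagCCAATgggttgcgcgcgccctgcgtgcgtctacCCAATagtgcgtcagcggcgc
Cdk1: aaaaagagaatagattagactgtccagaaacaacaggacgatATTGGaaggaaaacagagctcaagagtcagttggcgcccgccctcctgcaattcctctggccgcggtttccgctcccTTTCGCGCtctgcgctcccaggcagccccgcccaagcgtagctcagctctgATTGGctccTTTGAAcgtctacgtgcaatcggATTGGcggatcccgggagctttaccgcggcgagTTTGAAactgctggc
E2f8: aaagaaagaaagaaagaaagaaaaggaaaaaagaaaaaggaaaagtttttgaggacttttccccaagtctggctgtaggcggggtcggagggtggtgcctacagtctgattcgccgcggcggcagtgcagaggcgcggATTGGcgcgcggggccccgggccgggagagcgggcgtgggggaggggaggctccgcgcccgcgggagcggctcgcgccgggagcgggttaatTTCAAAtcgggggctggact
E2f7: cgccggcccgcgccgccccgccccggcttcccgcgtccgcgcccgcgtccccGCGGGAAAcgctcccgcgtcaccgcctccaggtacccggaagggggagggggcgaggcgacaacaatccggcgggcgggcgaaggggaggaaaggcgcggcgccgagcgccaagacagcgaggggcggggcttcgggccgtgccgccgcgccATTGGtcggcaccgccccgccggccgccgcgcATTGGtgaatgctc
Ccne1: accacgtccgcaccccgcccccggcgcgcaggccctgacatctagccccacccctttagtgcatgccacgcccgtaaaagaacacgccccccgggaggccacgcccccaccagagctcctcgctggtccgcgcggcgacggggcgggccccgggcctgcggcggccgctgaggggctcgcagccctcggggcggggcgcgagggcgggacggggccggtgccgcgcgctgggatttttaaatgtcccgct
Cdk6: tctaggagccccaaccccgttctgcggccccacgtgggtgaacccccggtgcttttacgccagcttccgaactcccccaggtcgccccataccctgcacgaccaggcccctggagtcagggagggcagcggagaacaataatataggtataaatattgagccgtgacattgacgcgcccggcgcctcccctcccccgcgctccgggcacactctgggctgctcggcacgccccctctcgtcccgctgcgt
Ccnb2 held 3 CCAAT boxes in the same orientation, each starting 33 bases after the one before, with a CHR match from base -167 to -162 and another just past the start, from base 5 to 10. Cdk1 held 3 CCAAT matches in the reverse orientation, CHR matches at -71 to -66 and at -15 to -10, and an E2F match at -131 to -124. E2f8 held a CCAAT match and a CHR match at -20 to -15, and E2f7 held CCAAT matches starting at -46 and -14 and an E2F match at -198 to -191. None of these letters were found in the windows of Ccne1 and Cdk6, which says nothing of the factors that act there. Other genes did not follow this split. Among genes with a higher signal, E2f3 held all 3 kinds of motif, Tfdp1 the E2F letters, and Cdkn2aipnl, Ccnc and Ccnt2 CCAAT boxes, while Ccng2, which was lower, held none.

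CDK inhibitors differed in direction, with Cdkn1a higher and the other 3 inhibitors above background lower. Cdkn1a, the p53-induced inhibitor of CDK2, had a log2 signal of 16.45 in shPDLIM2 cells and 16.06 in shEmpty cells, 1.31-fold higher. Cdkn1b, which holds cyclin E-CDK2 inactive in resting cells, had 9.44 in shPDLIM2 cells and 10.30 in shEmpty cells, 1.82-fold lower. Cdkn2d, an INK4 inhibitor of CDK4 and CDK6, had 8.34 in shPDLIM2 cells and 9.26 in shEmpty cells, 1.89-fold lower. Cdkn2c, another INK4 inhibitor, had 6.76 in shPDLIM2 cells and 7.23 in shEmpty cells, a difference of -0.47.

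The other inhibitors were above background in neither line. Cdkn2a, whose locus encodes both INK4A and ARF, had 3.28 in shPDLIM2 cells and 3.23 in shEmpty cells, and Cdkn2b had 4.20 and 4.47 in the same order. Cdkn1c, a Cip/Kip inhibitor, was also at background, with 4.37 in shPDLIM2 cells and 4.0 in shEmpty cells. The median log2 difference was -0.27 over all 7 inhibitors, 4 lower and 3 higher, and -0.665 over the 4 above background.

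Among E2F genes the 2 atypical repressors were lower in shPDLIM2 cells, while the activators showed no common direction. E2f8, which represses E2F targets late in the cycle without a DP partner, had a log2 signal of 11.20 in shPDLIM2 cells and 12.41 in shEmpty cells, 2.31-fold lower. E2f7, its partner in the same role, had 6.48 in shPDLIM2 cells and 7.34 in shEmpty cells, 1.82-fold lower. E2f1, an activator released from RB at the end of G1, had 6.37 in shPDLIM2 cells and 5.77 in shEmpty cells, 1.52-fold higher. The background levels were 5.26 and 5.12 in the same order, and its difference of 0.60 was inside the range of the receptor genes. E2f3, another activator, averaged 7.58 in shPDLIM2 cells and 7.29 in shEmpty cells, but its 2 probe sets gave differences of 0.59 and 0.00. E2f2 was above background in shEmpty cells alone, at 5.15 against 4.98 in shPDLIM2 cells, too close to the background level for a fold.

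The repressors E2f4, E2f5 and E2f6 showed small differences in both directions. E2f4, the main E2F of resting cells, had 9.65 in shPDLIM2 cells and 9.32 in shEmpty cells. E2f6, a Polycomb-associated repressor, had 11.25 in shPDLIM2 cells and 11.60 in shEmpty cells. E2f5 was level at 8.96 in shPDLIM2 cells and 9.04 in shEmpty cells, and its sign turned when the trend with signal was removed. Over the 8 E2F genes, 5 were lower and 3 higher, and the median was -0.125.

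All 3 pocket proteins, which bind and silence E2F, had lower signals in shPDLIM2 cells, although the sign of Rbl1 turned after quantile normalization. Rb1, the retinoblastoma gene, had a log2 signal of 8.71 in shPDLIM2 cells and 9.14 in shEmpty cells, a difference of -0.43. Rbl2, the pocket protein p130 of resting cells, had 8.29 in shPDLIM2 cells and 8.87 in shEmpty cells, 1.49-fold lower. Rbl1, known as p107, was nearly level at 8.32 in shPDLIM2 cells and 8.41 in shEmpty cells. The DP proteins, DNA-binding partners of E2F factors other than the atypical ones, had differences of opposite sign. Tfdp1 had 14.35 in shPDLIM2 cells and 13.83 in shEmpty cells, and Tfdp2 had 7.87 in shPDLIM2 cells and 8.36 in shEmpty cells.

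Cyclins and CDKs of transcription showed no common direction, with 6 of 12 genes lower and 6 higher (median log2 difference -0.06). All 12 were above background on both arrays, and their differences ran from -0.50 to 0.52, narrower than among the cell cycle cyclins and CDKs. Ccnh, the cyclin of the CDK-activating kinase and of TFIIH, was the highest, with 14.05 in shPDLIM2 cells and 13.53 in shEmpty cells. Its kinase Cdk7 was level, with a difference of 0.02. Ccnl2, a cyclin linked to splicing through the CDK11 kinases, was the lowest, with 9.76 in shPDLIM2 cells and 10.26 in shEmpty cells, and Ccnl1, its relative, was at -0.34 while Cdk11b was at 0.13.

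For the Mediator kinases, Ccnc, their cyclin, had a log2 difference of 0.47, whereas Cdk8 and Cdk19, the alternative kinases that it activates, were at -0.39 and -0.47. Of the cyclins of the elongation factor P-TEFb, Ccnt2 was at 0.45 and Ccnt1 at -0.14. Ccnk, the cyclin of CDK13, was at -0.24, while Cdk13 itself was at 0.34. Among the 5 CDKs of transcription analysed here, the median was 0.02, with 3 higher and 2 lower. The differences of Ccnk, Cdk13, Ccnl1, Cdk11b and Ccnt1 were within the spread of probe sets, so that their signs carry little weight.

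**Figure D3:**
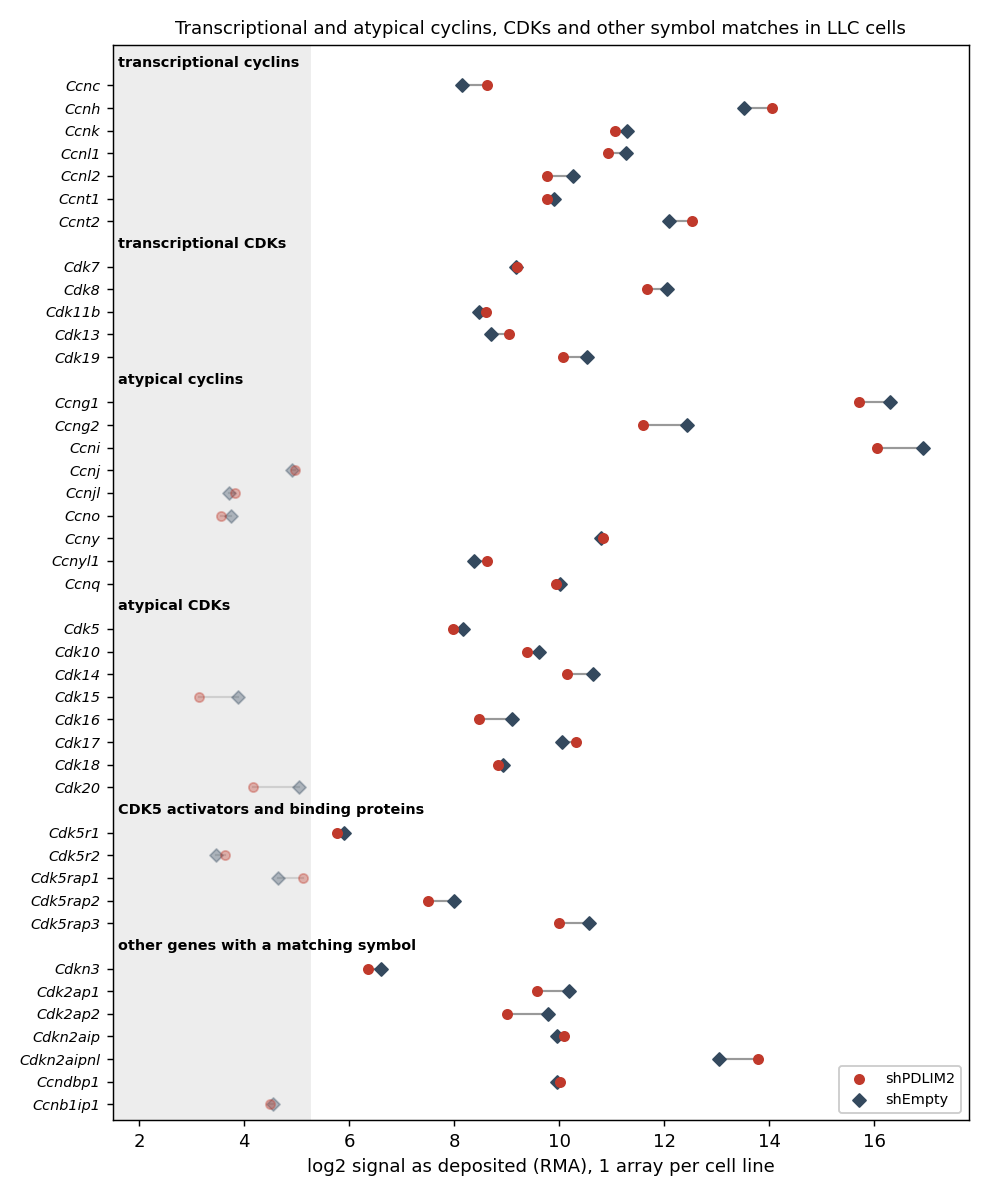
Log2 signal (x axis) of transcriptional and atypical cyclins and CDKs and of other genes with a matching symbol (y axis) in shPDLIM2 (circles) and shEmpty (diamonds) LLC cells, 1 array each; the grey area is the range up to the higher background level (5.26), and pale points are genes above background on neither array. Ccni, Ccng2, Ccng1, Cdk16 and Cdk2ap2 lie to the left in shPDLIM2 cells, and Cdkn2aipnl and Ccnh lie to the right.

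Among atypical cyclins, Ccni and both G-type cyclins were lower in shPDLIM2 cells by more than the spread of probe sets. The difference of Ccng1 was nonetheless inside the range of the receptor genes. Ccni, an atypical cyclin known to act with CDK5 in podocytes, had a log2 signal of 16.06 in shPDLIM2 cells and 16.93 in shEmpty cells, 1.83-fold lower. Ccng2, a cyclin that is high in cells leaving the cycle, had 11.59 in shPDLIM2 cells and 12.44 in shEmpty cells, a difference of -0.85. Ccng1, a p53 target, had 15.72 in shPDLIM2 cells and 16.30 in shEmpty cells, 1.49-fold lower. This was opposite in sign to Cdkn1a, which p53 also induces. Ccny, Ccnyl1 and Ccnq had differences of 0.03, 0.25 and -0.07, and Ccnj, Ccnjl and Ccno were not above background.

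Of the 8 atypical CDKs, 7 were lower and 1 was higher, where 49.0% of all genes were lower. Their median was -0.365 on the log2 scale, but the largest drops, of Cdk20 and Cdk15, were of genes at background. Of the 6 above background, 5 were lower and 1 higher (median -0.215), where 54.9% of all such genes were lower. Cdk16, a kinase activated by cyclin Y, had 8.47 in shPDLIM2 cells and 9.10 in shEmpty cells, 1.55-fold lower. Cdk14, another partner of cyclin Y, was at -0.49, and Cdk10, the partner of Ccnq, was at -0.24. Cdk5 and Cdk18 were at -0.19 and -0.10, and Cdk17 was higher at 0.27. The differences of Cdk10, Cdk5, Cdk18 and Cdk17 were within the spread of probe sets. The CDK5-binding genes included Cdk5rap3, with 10.00 in shPDLIM2 cells and 10.57 in shEmpty cells. Cdk5rap2, a centrosomal protein, had 7.50 in shPDLIM2 cells and 8.00 in shEmpty cells. Cdk5r1, the activator p35 of CDK5, was nearly level at -0.14, while Cdk5r2 and Cdk5rap1 were at background.

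The symbol rule also took in 7 genes that are neither cyclins, CDKs nor classical inhibitors, of which 4 were lower and 3 higher. Cdkn2aipnl, a relative of an ARF-binding protein, had a log2 signal of 13.78 in shPDLIM2 cells and 13.05 in shEmpty cells, 1.66-fold higher. Cdk2ap2 had 9.0 in shPDLIM2 cells and 9.79 in shEmpty cells, 1.73-fold lower, and Cdk2ap1, its relative that binds CDK2, had 9.58 and 10.18 in the same order. Cdkn3, a phosphatase of CDK2, was at -0.25, Cdkn2aip at 0.15 and Ccndbp1 at 0.07. Ccnb1ip1, a meiotic crossover factor, was at background.

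Other genes of the same pathways were read from lists by role. For these counts, 54.9% of all genes above background were lower in shPDLIM2 cells and 44.3% higher. Of 8 genes for enzymes and small subunits that set CDK activity, 5 were lower and 3 higher, and the median was -0.15. Cks2 and Cks1b, small subunits that bind CDK complexes, were both lower. Cks2 had 7.70 in shPDLIM2 cells and 8.45 in shEmpty cells, and Cks1b had 11.02 in shPDLIM2 cells and 11.56 in shEmpty cells. Wee1, the kinase that inhibits CDK1, was at 0.36. Wee2, its oocyte relative, was at -0.63, but its signals of 5.31 in shPDLIM2 cells and 5.94 in shEmpty cells lay near background. The CDC25 phosphatases, which activate CDKs, lay between -0.11 and 0.14.

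Of 17 genes for the destruction of cyclins and inhibitors, 9 were lower, 7 higher and 1 equal. At least 2-fold lower were 3 of them, beside 3.27% of all genes above background. Ube2c, the ubiquitin-conjugating enzyme of the anaphase-promoting complex, had a log2 signal of 12.30 in shPDLIM2 cells and 13.58 in shEmpty cells. Fzr1, an activator of that complex, had 8.12 in shPDLIM2 cells and 9.15 in shEmpty cells, and Anapc2, its cullin subunit, had 9.54 and 10.56 in the same order. Ube2s, which extends ubiquitin chains for it, was at -0.90. Cul1, the cullin of the SCF ligases, was not lower, with 10.08 in shPDLIM2 cells and 9.35 in shEmpty cells. The list had a median of -0.08, whose sign turned under quantile scaling and once the trend with signal was removed.

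Of 20 E2F target genes of DNA replication, 16 were lower and 4 higher (median log2 difference -0.415, 0 past 2-fold). Among all genes above background, 54.9% were lower and the median was -0.06. Rrm1, a subunit of ribonucleotide reductase, was at -0.81, Tk1, thymidine kinase, at -0.74, Rfc3, a clamp loader subunit, at -0.73 and Mcm4, a helicase subunit, at -0.61. Cdc6, which loads the helicase, was the highest at 0.32. Of 7 MuvB and MYB genes, which carry the mitotic program, 4 were lower and 3 higher, and their median was -0.30. Mybl2, which turns MuvB into an activator, had a signal of 8.00 in shPDLIM2 cells and 8.92 in shEmpty cells. Its partner Rbbp4 was at -0.69, Lin37, another MuvB subunit, at -0.53, and Lin54, the subunit that binds CHR elements, at 0.46.

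Of 10 partners of the transcriptional CDKs, 5 were lower and 5 higher. Their median was -0.05, and its sign turned under quantile scaling, once the trend with signal was removed, and with genes above background only. Hexim1, which holds P-TEFb inactive, had a log2 signal of 9.0 in shPDLIM2 cells and 9.75 in shEmpty cells. Aff4, a scaffold of the super elongation complex, had 13.35 in shPDLIM2 cells and 12.86 in shEmpty cells. Ell2, an elongation factor, and Mepce, a capping enzyme of the inhibitory RNA, were at -0.32 and 0.32.

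**Figure D4:**
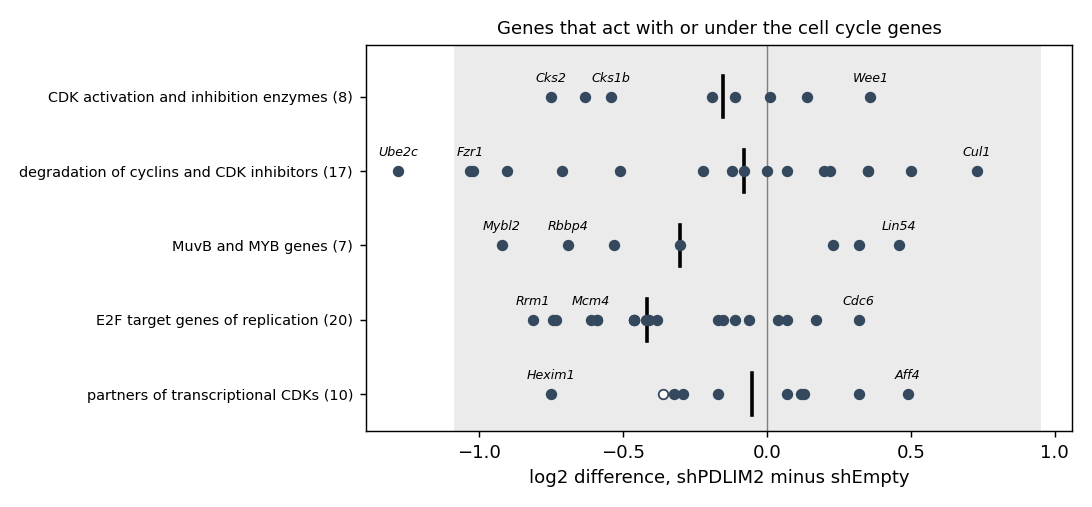
Log2 difference (x axis, shPDLIM2 minus shEmpty) of genes that act with or under the cell cycle genes, by list (y axis, number of genes in brackets); open points are above background on neither array, black bars are medians and the grey band holds the central 95% of all genes above background (-1.08 to 0.95). The replication genes have the lowest median, -0.415, and Ube2c at -1.28 lies below the band.

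The labelled cell type was checked against marker genes. Of 8 epithelial markers, 3 were above background in shPDLIM2 cells and 4 in shEmpty cells, namely Krt8, Krt18 and Krt7 in both lines and Krt19 in shEmpty cells alone. All 8 had a lower signal in shPDLIM2 cells, but the signs of those at background carry little weight. Their log2 summed signal was 11.4 in shPDLIM2 cells and 12.3 in shEmpty cells, most of it from Krt18. Krt18 had 11.29 in shPDLIM2 cells and 12.20 in shEmpty cells, and Krt19 had 4.67 and 5.82 in the same order. Their part in the differences of the cell cycle genes was not tested. Epcam, Cdh1, Cldn4 and Cldn7 were above background in neither line, nor were Nkx2-1, Sftpb, Sftpa1 and Scgb1a1 of lung epithelium, while Sftpc was barely above it at 5.33 in shPDLIM2 cells and 5.13 in shEmpty cells. Of 5 leukocyte markers, Adgre1 alone was above background, in shPDLIM2 cells, and of 4 endothelial markers Pecam1 alone, also in shPDLIM2 cells. Both lay close to the background level of 5.26, at 5.76 and 5.33, and Ptprc and Cdh5 were at background in both lines. Of 6 fibroblast markers, 3 were above background in shPDLIM2 cells and 1, Col3a1, in shEmpty cells. Col3a1, a fibrillar collagen, was far above background in both lines, with 10.49 in shPDLIM2 cells and 10.83 in shEmpty cells.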

How the data were processed

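Total RNA of shPDLIM2 and shEmpty LLC cells was hybridized to Affymetrix Clariom S mouse arrays, 1 for each line. The authors deposited log2 signals with 2 decimals for every probe set. RMA and the Transcriptome Analysis Console are named in the submitters' processing notes. Versions, genome build and any joint normalization remain unknown (not given in the sources used here). RMA summarizes the probes of a set and shrinks differences near background. The number of arrays limits the precision.

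Gene symbols came from GEO's platform annotation, which gave 1 symbol to 19572 of 22206 probe sets. The 2634 without a symbol were not used. Probe sets of a gene were averaged, which left 19505 genes. The members and lists were chosen with earlier results of these data known. Both signals are given for genes of the cell cycle, inhibitor and E2F-RB groups above background and for other members with an absolute log2 difference of at least 0.5. Up to 4 genes of each further list are named by size of difference, and Cul1, Cdc6 and the CDC25 genes were named after their values were seen. With 1 array per line no test was run. Scripts were tested on simulated data. Alternatives were centring, quantile normalization, removal of a lowess trend (fraction 0.3), a filter on background, the 99th percentile as background, the brightest probe set and a fold of 1.5. Python 3.11.15, numpy 2.4.6, pandas 2.3.3, statsmodels 0.14.6 and matplotlib 3.10.9 were used.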

Additional observations from a re-analysis of the deposited data

How the results depend on the processing

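The scaling of the arrays could not be checked against replicates, and all values rest on 1 array per line. No alternative turned the sign of Ccnb2 or E2f8, the genes past 2-fold. Centring on the median difference and, for the counts past 2-fold, the 99th percentile as background left the results on the same side. Taking the brightest probe set of E2f3 moved the median of the activator E2F genes to 0.00.

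After quantile normalization the median of the 74 genes was -0.04 and after removal of the lowess trend -0.018. That of the D-type cyclins turned to 0.05 and 0.0066, that of the genes for destruction of cyclins and inhibitors to 0.025 and 0.011, and that of the partners of transcriptional CDKs to 0.0175 and 0.0276. Without the lowess trend the median of the repressors E2f4, E2f5 and E2f6 was 0.0006. Under both scalings 2 genes, Cdk6 and Ccne2, were at least 2-fold higher, at 1.06 and 1.01 after quantile normalization. The share of all genes at least 2-fold higher under these scalings was not counted, so this count has no comparison. With genes above background only, the medians were -0.14 for all 60 genes, -1.65 for the B-type cyclins (Ccnb2 alone), -0.665 for the inhibitors, -0.235 for the Cip/Kip inhibitors and 0.07 for the partners of transcriptional CDKs. A fold of 1.5 left 12 genes lower and 4 higher, or 16.2% and 5.41% of the 74 genes, where 10.0% and 9.78% of all genes were past it. The causes of these shifts were not tested. No paired analysis was possible because each cell line has 1 array.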

Other observations

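The spacing of CCAAT boxes was examined after the sequences were seen. Pairs in the same orientation with starts 31 to 34 bases apart were found in 4 of the 70 windows of these genes (5.71%), against 0.890% of all 32817 promoter windows. The genes were Ccnb2, Cdk1, Cdk2ap2 and E2f7, with log2 differences of -1.65, -0.51, -0.79 and -0.86, each lower in shPDLIM2 cells. Ccnb2, Cdk1 and E2f7 are among the promoters printed above, with spacings of 33, 32 and 32 that this range takes in. The share was thus counted in the genes that drew attention to the spacing, and it is no independent evidence. The direction of all genes with such a pair was not counted.

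The differences were also set beside the motifs, with no test. Of the 25 genes above background with CCAAT in a promoter window, 20 were lower and 5 higher in shPDLIM2 cells (median log2 difference -0.47), and of the 23 without it 12 were lower and 11 higher (median -0.07). Over all genes above background, 55.8% of those with CCAAT and 54.5% of those without it were lower. With the CHR letters, 9 of 10 genes were lower (median -0.545), and E2f3 was higher. The lower ones were Ccnb2, E2f8, Ccni, Cdk16, Rbl2, Cdk1, Cdk5rap2, Cdkn3 at -0.25 and E2f2 at -0.17. Ccnb2, E2f8, Cdk1, Cdk16, Cdkn3, E2f2 and E2f3 also held CCAAT, so the CCAAT and CHR comparisons share most of these genes. Of the 38 genes without the CHR letters, 23 were lower (median -0.095). Over all genes above background, 55.5% and 55.0% were lower with and without the CHR letters. With the E2F letters 5 of 7 genes were lower (median -0.09), and without them 27 of 41 (median -0.25), where 56.4% and 55.0% of all genes above background were lower with and without these letters.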
